A study of Mus musculus with 32 samples.

Results

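The response described here is that of fat cells exposed to tumour necrosis factor alpha (TNF) while SCO was also present. The 4 libraries labelled TNF_SCO were set against the 4 labelled basal_SCO, 8 of the 32 libraries of the series, across every expressed gene. All libraries came from 3T3-L1, a mouse preadipocyte line. Its cells were grown to confluence in calf serum and turned into adipocytes with insulin, dexamethasone and IBMX. TNF_SCO cells received SCO and TNF for 24 h, and basal_SCO cells received SCO without TNF for 24 h. The same design was run with CAP7 (TNF_CAP7 and basal_CAP7), with rosiglitazone (TNF_ROSI and basal_ROSI) and with the DMSO vehicle (TNF_DMSO and basal_DMSO), 4 libraries in each of 8 groups. The labels give SCO and CAP7 as abbreviations only, an extract of Artemisia scoparia appears in the title of the series, and no source used here gives the doses. The titles call the 4 libraries of a group biological replicates, but nothing says that they came from separate cultures, so p-values measure the spread between these libraries, which may be technical. By design the culture holds no cell type of fat tissue other than preadipocytes and the adipocytes made from them. A single line cannot show how lines or animals vary.

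TNF binds its receptor on the fat cell and activates NF-κB, a transcription factor held in the cytoplasm by IκB proteins until they are degraded. NF-κB switches on chemokines, acute phase proteins and its own inhibitors, and in adipocytes TNF also lowers PPARγ and C/EBPα, the transcription factors that maintain lipid storage, insulin-stimulated glucose uptake and adiponectin secretion. Rosiglitazone is an agonist of PPARγ, and the series used it as the control for PPARγ target genes.

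Library totals ran between 16509264 and 30004594 counts in TNF_SCO and between 13252057 and 17253418 in basal_SCO (exact permutation test, two-sided, p = 0.0571, where the smallest possible p is 0.0286). Mitochondrially encoded transcripts took 10.71% to 13.16% of the counts in TNF_SCO and 10.76% to 13.75% in basal_SCO. Levels are given as CPM, counts per 1000000 of the library total after trimmed-mean normalisation. How reads that map to several genes were counted is not given in the sources used here, so members of multigene families such as Saa3, Arxes2, Mt2 and the Gbp and Ccl genes are uncertain. The cells carried adipocyte markers in both groups: all 13 were measured, with a summed level of 39490 to 48610 CPM in TNF_SCO and 76160 to 85590 CPM in basal_SCO. In a bulk sample, fewer cells of a type and less RNA per cell cannot be told apart. Preadipocyte and fibroblast markers summed to 2707 to 3245 CPM in TNF_SCO and 2267 to 2513 CPM in basal_SCO, and 16 of 19 could be tested. Macrophage and leukocyte markers summed to 144.7 to 160.3 CPM in TNF_SCO and 11.27 to 16.48 CPM in basal_SCO, of which S100a8 and Cd14 made up most. The defining leukocyte markers Adgre1, Ptprc, Itgam, Tyrobp, Cd79a and C1qa had no count in any of the 8 libraries. Endothelial and mural markers summed to 16.44 to 20.08 CPM in TNF_SCO and 25.12 to 28.63 CPM in basal_SCO, with 3 of 12 tested.

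TNF changed 6976 of the expressed genes when SCO was present, in both directions. Of 14428 genes tested, 3613 were higher in TNF_SCO (25% of those tested) and 3363 were lower (23.3%), at an adjusted p under 0.05 in edgeR's quasi-likelihood test, which is what called means below. A change of at least 2-fold was called upward for 1227 genes (8.5%) and downward for 848 (5.88%). The 4 and 4 libraries did not overlap for 6148 genes (42.6%). The median log2 change over all genes tested was 0.0023, so the counts in each direction stand against a centre close to 0. All log2 changes below are TNF_SCO over basal_SCO unless another pair is named. Whether a response differed from that in vehicle-treated cells was tested as the difference of the 2 log2 changes, SCO minus DMSO. That difference was called higher for 507 genes (3.51%) and lower for 163 (1.13%). Each count of list members below is to be read against these shares over all genes tested.

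**Figure D1:**
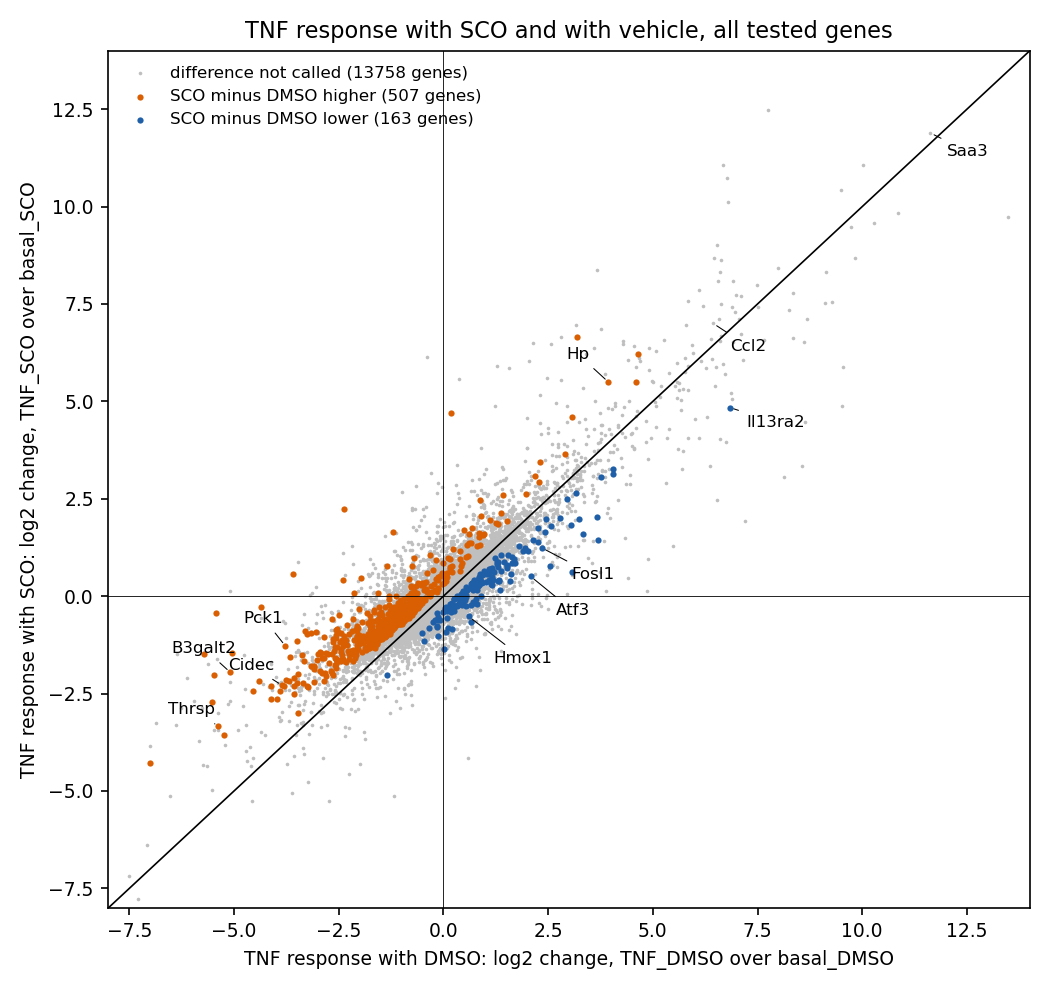
Log2 change of each tested gene in response to TNF with SCO (vertical axis) against that with DMSO vehicle (horizontal axis), with genes whose 2 responses differed (adjusted p under 0.05) in colour and the line of equal response. The 507 genes in orange lie above the line, mostly at the lower left where TNF lowered them less with SCO, and the 163 genes in blue lie below it.

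The genes of the NF-κB pathway itself responded to TNF in SCO-treated cells. Of 18 tested subunits and inhibitors, 16 were higher and 1 was lower, against 25% and 23.3% of all genes, with a median log2 change of 1.40. Nfkbia, which encodes the inhibitor IκBα, had 1953, 1744, 1952 and 1644 CPM in the TNF_SCO libraries, against 284, 268, 315 and 259 CPM in the basal_SCO libraries. No library of one group reached the other (log2 change 2.7, SE 0.072, adjusted p = 7.1e-28). Nfkbie, which encodes the inhibitor IκBε, had 49.8, 36.4, 33.8 and 41.2 CPM in the TNF_SCO libraries, against 0.241, 0.224, 0.152 and 0.233 CPM in the basal_SCO libraries, near the floor of detection without TNF (log2 change 7.51, SE 0.27, adjusted p = 1.2e-23). Tnip1, a partner of the deubiquitinase A20, had 550.2, 537, 538 and 512 CPM in the TNF_SCO libraries, against 61.5, 59.3, 58.5 and 59.8 CPM in the basal_SCO libraries, a narrow spread on both sides (log2 change 3.16, SE 0.065, adjusted p = 1.6e-31). Tnfaip3, which encodes A20 itself, had 44.9, 45.0, 42.0 and 44.6 CPM in the TNF_SCO libraries, against 3.43, 3.14, 2.67 and 4.19 CPM in the basal_SCO libraries (log2 change 3.70, SE 0.14, adjusted p = 2.1e-23). The subunit genes Relb and Nfkb2 rose with log2 changes of 3.09 ± 0.089 and 2.27 ± 0.084 (± SE), and the atypical IκB member Bcl3 with 4.03 ± 0.12. Chuk, which encodes an IκB kinase subunit, was the member that was not called, at 36.7 ± 2.96 CPM in TNF_SCO and 41.1 ± 3.45 CPM in basal_SCO (SD, n = 4 each). With DMSO the log2 changes of Nfkbia, Tnip1 and Nfkb2 were 2.96, 2.90 and 2.33. The difference SCO minus DMSO had 95% intervals of -0.45 to -0.065 for Nfkbia, 0.087 to 0.44 for Tnip1 and -0.30 to 0.17 for Nfkb2. edgeR called none of the 18 members in that difference, 4 had an unadjusted p under 0.05, and DESeq2 and limma-voom also called 0. With the stricter filter, edgeR called Tnip1 at 0.27 (adjusted p = 0.045).

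Promoters of the genes that moved together are shown for 5 members, because each holds a short element known from its pathway. The sequences are the 250 bases before the RefSeq start on the gene's own strand, 5′ to 3′, in build GRCm38.p6, with matches in capitals. Searched on both strands were GGGANNTTC for NF-κB, GAAANNGAA for the interferon response element core and AGGNCAAAG for the start of the direct repeat bound by PPARγ with RXR. Nfkbia lies at chr12:55492648-55492897 (minus strand), Cxcl1 at chr5:90890995-90891244 (plus strand), Gbp2 at chr3:142620413-142620662 (plus strand), Cxcl10 at chr5:92348890-92349139 (minus strand) and Plin1 at chr7:79732777-79733026 (minus strand).
Nfkbia: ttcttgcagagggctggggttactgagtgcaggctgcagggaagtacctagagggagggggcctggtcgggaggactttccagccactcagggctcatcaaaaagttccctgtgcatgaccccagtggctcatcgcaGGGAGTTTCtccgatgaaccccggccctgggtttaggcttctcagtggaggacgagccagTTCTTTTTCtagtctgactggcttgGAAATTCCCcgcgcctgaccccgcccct
Cxcl1: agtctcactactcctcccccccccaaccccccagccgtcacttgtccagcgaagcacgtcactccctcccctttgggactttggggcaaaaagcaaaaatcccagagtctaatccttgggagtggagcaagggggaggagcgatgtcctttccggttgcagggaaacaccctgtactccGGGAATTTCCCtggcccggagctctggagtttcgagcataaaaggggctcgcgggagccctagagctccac
Gbp2: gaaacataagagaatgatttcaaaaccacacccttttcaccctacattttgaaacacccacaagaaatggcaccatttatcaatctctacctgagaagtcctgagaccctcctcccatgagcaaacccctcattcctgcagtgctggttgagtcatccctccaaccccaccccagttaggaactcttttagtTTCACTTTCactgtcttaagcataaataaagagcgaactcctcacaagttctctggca
Cxcl10: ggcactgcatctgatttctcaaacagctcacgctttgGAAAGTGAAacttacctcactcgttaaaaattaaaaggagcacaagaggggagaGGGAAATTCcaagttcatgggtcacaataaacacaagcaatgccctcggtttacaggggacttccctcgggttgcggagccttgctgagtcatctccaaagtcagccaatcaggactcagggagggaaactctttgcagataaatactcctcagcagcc
Plin1: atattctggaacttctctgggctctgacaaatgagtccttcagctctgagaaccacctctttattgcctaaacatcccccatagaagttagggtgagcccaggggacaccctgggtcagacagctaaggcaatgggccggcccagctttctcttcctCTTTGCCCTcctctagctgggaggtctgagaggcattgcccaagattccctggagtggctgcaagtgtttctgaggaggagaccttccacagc
In Nfkbia the 3 matches begin 113, 53 and 28 bases before the start and include both the NF-κB and the interferon element. The pair of NF-κB matches in Cxcl1 begin 71 and 69 bases before the start and overlap on opposite strands. Cxcl10 holds an interferon element and an NF-κB element, Gbp2 an interferon element, and Plin1 a direct repeat start. Over the 300 bases around the start (250 before, 50 after), GGGANNTTC was found in 4.32% of 10060 tested genes with a promoter in the table, in 3 of 14 NF-κB genes (21.4%) and in 4 of 13 chemokine genes (30.8%). The same element was in 54 of 868 genes raised at least 2-fold (6.22%), 1 of 19 TNF receptor and adaptor genes (5.26%) and 0 of 18 acute phase and complement genes. GAAANNGAA was found in 8.65% of all tested genes, in 19 of 26 interferon-stimulated genes (73.1%) and in 135 of 868 genes raised at least 2-fold (15.6%). AGGNCAAAG was found in 2.04% of all, and in 13 of 364 genes whose response with SCO was higher than with DMSO (3.57%). It was in 1 of 26 PPARγ targets (3.85%) and in 12 of 558 genes lowered at least 2-fold (2.15%). A match is a description of letters and shows no binding.

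Genes of the TNF receptors and their adaptors were higher for 16 of 23 members and lower for 1. Traf1, an adaptor of the second TNF receptor, had 12.2, 8.89, 8.75 and 10.6 CPM in the TNF_SCO libraries, against 0, 0, 0 and 0 CPM in the basal_SCO libraries. With no count in basal_SCO its level was at least 204-fold higher in TNF_SCO, taking 3 counts over the group as the floor. Tnfaip2 had 423, 356, 467 and 361 CPM in the TNF_SCO libraries, against 68.0, 76.0, 71.0 and 72.3 CPM in the basal_SCO libraries, without overlap (log2 change 2.48, SE 0.082, adjusted p = 5.0e-25). Birc3 and Birc2, the ubiquitin ligases that protect cells from TNF-induced death, had log2 changes of 2.39 ± 0.13 and 0.87 ± 0.087. The primary receptor gene Tnfrsf1a was not called, at 223 ± 7.81 CPM in TNF_SCO and 219.8 ± 5.52 CPM in basal_SCO (SD, n = 4 each). Tnfaip2 and Birc2 were the 2 members whose rise was smaller with SCO than with DMSO, by -0.47 (adjusted p = 0.0069) and -0.58 (adjusted p = 0.002) on the log2 scale.

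Chemokines, which draw leukocytes into inflamed fat, showed some of the largest increases. Of 20 tested CC and CXC chemokines, 15 were higher and 1 was lower, and 14 rose at least 2-fold, against 8.5% of all genes. Ccl2, the main monocyte attractant of adipocytes, had 1680.2, 1333, 1480.0 and 1176 CPM in the TNF_SCO libraries, against 11.4, 8.81, 13.0 and 11 CPM in the basal_SCO libraries, so that even the lowest TNF_SCO library stood far above every basal_SCO library (log2 change 7.00, SE 0.17, adjusted p = 2.0e-29). Ccl5, which attracts T cells, had 182, 90.5, 115 and 102 CPM in the TNF_SCO libraries, against 0.0601, 0.149, 0.0762 and 0.0582 CPM in the basal_SCO libraries (log2 change 10.43, SE 0.43, adjusted p = 4.7e-22). Cxcl10, an interferon-inducible attractant of T cells, had 180.2, 53.5, 92.2 and 90.0 CPM in the TNF_SCO libraries, against 0.120, 0, 0.0762 and 0.872 CPM in the basal_SCO libraries, a wide spread with the first TNF_SCO library highest (log2 change 8.42, SE 0.56, adjusted p = 1.1e-15). Both Ccl5 and Cxcl10 were near the floor of detection in basal_SCO, so the size of these folds is uncertain. The neutrophil attractants Cxcl1 and Cxcl5 had log2 changes of 5.40 ± 0.14 and 4.85 ± 0.13, Ccl7 of 5.91 ± 0.16 and Ccl9 of 3.23 ± 0.10. Ccl6 went the other way, with 59.8, 55.2, 63.2 and 52.7 CPM in the TNF_SCO libraries, against 355, 347, 375 and 371 CPM in the basal_SCO libraries (log2 change -2.65, SE 0.12, adjusted p = 1.1e-20). The median log2 change of the list was 4.73, or 4.48 with the 2 members that had no count in basal_SCO set at their lower bound, and it was 4.83 with DMSO. Without a called difference from DMSO among the 20 members (edgeR 0, DESeq2 1, limma-voom 0, with 2 at an unadjusted p under 0.05), the 95% interval of the difference was 0.16 to 0.96 for Ccl2 and -0.51 to 0.27 for Cxcl1. Ccl2 was called in that difference without a filter on low counts at 0.56, in the compared libraries alone at 0.54 and without basal_DMSO replicate 1 at 0.66.

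Of 25 tested cytokines, cytokine receptors and SOCS genes, 21 were higher. Csf1, the growth factor of macrophages, had 290.1, 219, 269 and 236 CPM in the TNF_SCO libraries, against 31.8, 27.8, 28.6 and 35.6 CPM in the basal_SCO libraries (log2 change 3.03, SE 0.091, adjusted p = 2.7e-26). Il1rl1, the receptor of interleukin 33, had 85.6, 70.4, 94.1 and 79.7 CPM in the TNF_SCO libraries, against 1.68, 1.79, 2.13 and 1.69 CPM in the basal_SCO libraries (log2 change 5.51, SE 0.17, adjusted p = 9.1e-26), and its rise was larger than with DMSO by 0.91, SE 0.26, adjusted p = 0.031. That difference was lost without basal_SCO replicate 1, 2 or 4 or basal_DMSO replicate 2, at 0.76 to 0.91, in limma-voom and in thinned counts. Il6, measured at low counts, had 2.23, 1.75, 1.64 and 0.651 CPM in the TNF_SCO libraries, against 0.180, 0.299, 0.305 and 0.523 CPM in the basal_SCO libraries, 4 low values that did not overlap the 4 of basal_SCO (log2 change 2.26, SE 0.49, adjusted p = 2.1e-04). The gp130 receptor chain Il6st, the oncostatin M receptor Osmr and the feedback inhibitor Socs3 rose with log2 changes of 1.71 ± 0.063, 3.34 ± 0.13 and 1.67 ± 0.11. Il13ra2, the decoy receptor of interleukin 13, rose to 17.5 to 21.6 CPM in TNF_SCO, against 0.523 to 0.838 CPM in basal_SCO. Its rise was smaller with SCO than with DMSO by -2.00, SE 0.52, adjusted p = 0.016, a call that was lost in limma-voom (-2.07, adjusted p = 0.196).

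Acute phase proteins rose strongly, and some rose more with SCO than with vehicle. Of 24 tested acute phase and complement genes, 19 were higher and 2 were lower, with a median log2 change of 1.97. Saa3, a serum amyloid A protein made by fat cells, had 3777, 2734, 2815 and 3091 CPM in the TNF_SCO libraries, against 1.02, 0.373, 1.22 and 0.640 CPM in the basal_SCO libraries, with basal_SCO near the limit of detection (log2 change 11.89, SE 0.24, adjusted p = 6.2e-32). Hp, which encodes the haemoglobin-binding protein haptoglobin, had 16066, 16557, 14677 and 15126 CPM in the TNF_SCO libraries, against 373, 337, 353 and 319 CPM in the basal_SCO libraries (log2 change 5.50, SE 0.10, adjusted p = 5.4e-33). With DMSO its log2 change was 3.94, with 12168 ± 740.2 CPM in TNF_DMSO and 795 ± 73.2 CPM in basal_DMSO (SD, n = 4 each). The rise of Hp was therefore larger with SCO by 1.56, SE 0.12, adjusted p = 2.7e-12 on the log2 scale, and the 4 group means show that basal_SCO lay below basal_DMSO while TNF_SCO lay above TNF_DMSO. Hpx, the haem-binding hemopexin, had 953, 935, 973 and 909.6 CPM in the TNF_SCO libraries, against 5.89, 5.23, 5.18 and 5.47 CPM in the basal_SCO libraries, the 4 values of each group within a narrow range (log2 change 7.43, SE 0.14, adjusted p = 7.0e-33). Cfb, complement factor B, had 1139, 1169, 972 and 1137 CPM in the TNF_SCO libraries, against 12.3, 14, 12.2 and 12.2 CPM in the basal_SCO libraries (log2 change 6.45, SE 0.13, adjusted p = 1.6e-31). Lcn2, the siderophore-binding lipocalin 2, and Lbp, the lipopolysaccharide-binding protein, rose with log2 changes of 5.98 ± 0.17 and 7.45 ± 0.30. Orm1, which encodes an alpha-1 acid glycoprotein, fell, at 74.4 ± 14.3 CPM in TNF_SCO and 102 ± 5.45 CPM in basal_SCO (SD, n = 4 each), and fell less than with DMSO by 0.71 (adjusted p = 0.0049). In all, 5 members had a higher response with SCO than with DMSO. S100a8, which encodes a subunit of calprotectin and stands here among the leukocyte markers, had 119.8, 110.1, 102 and 112 CPM in the TNF_SCO libraries, against 5.11, 3.88, 5.11 and 4.19 CPM in the basal_SCO libraries (log2 change 4.60, SE 0.17, adjusted p = 1.0e-23), and its rise was larger with SCO by 1.52, SE 0.22, adjusted p = 8.6e-06.

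**Figure D2:**
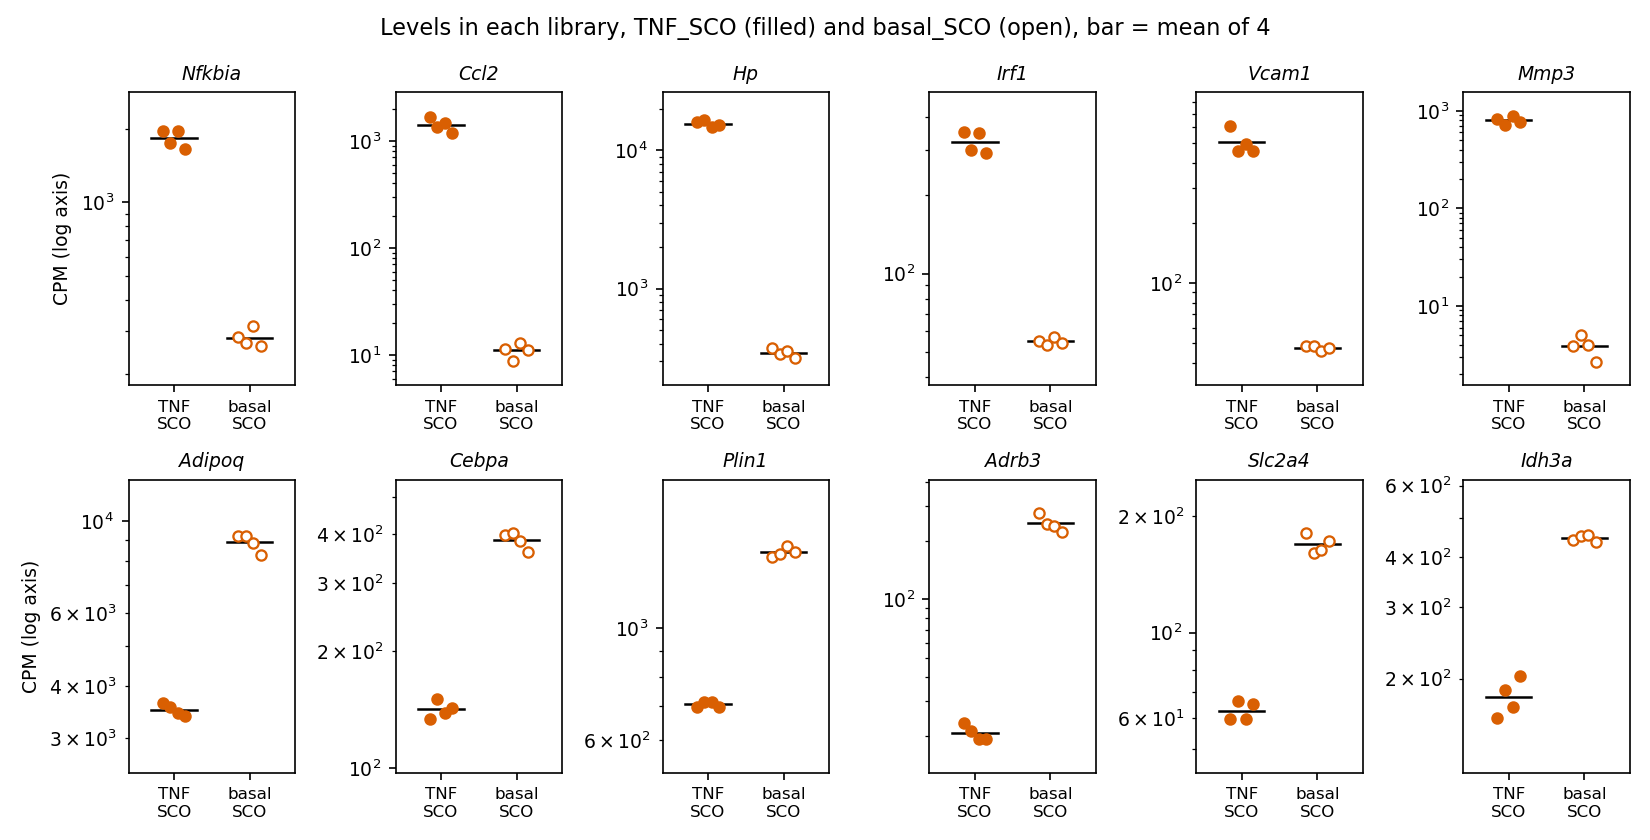
CPM in each of the 4 TNF_SCO (filled) and 4 basal_SCO (open) libraries for 6 genes that rose and 6 that fell, on a log axis; the bar is the group mean. The groups do not overlap in any of the 12 genes.

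Interferon-stimulated genes rose as a block. All 35 tested members were called higher, 33 of them at least 2-fold, with a median log2 change of 2.83. Irf1, the transcription factor that TNF and interferons both induce, had 349.9, 299, 347 and 291 CPM in the TNF_SCO libraries, against 55.0, 53.0, 57.0 and 53.9 CPM in the basal_SCO libraries (log2 change 2.56, SE 0.082, adjusted p = 1.9e-25). The guanylate-binding protein gene Gbp2 had 214, 164, 195 and 169 CPM in the TNF_SCO libraries, against 10.5, 8.51, 9.68 and 12.1 CPM in the basal_SCO libraries (log2 change 4.18, SE 0.16, adjusted p = 8.7e-23). Gbp5 had 42.4, 23.6, 42.6 and 23.3 CPM in the TNF_SCO libraries, against 0.0601, 0.0747, 0 and 0 CPM in the basal_SCO libraries, where basal_SCO held too few counts for a fold. Gbp7, Parp14, Zbp1 and Stat2 had log2 changes of 2.91 ± 0.30, 3.10 ± 0.31, 3.95 ± 0.42 and 1.22 ± 0.25. The median log2 change with DMSO was 2.92, and none of the 35 was called in the difference by edgeR (1 at an unadjusted p under 0.05, DESeq2 1, limma-voom 0). Genes of class I antigen presentation followed, with 15 of 16 higher. Tapbp, the chaperone tapasin, had 1449, 1402, 1516 and 1228 CPM in the TNF_SCO libraries, against 329, 311, 313 and 315 CPM in the basal_SCO libraries (log2 change 2.14, SE 0.092, adjusted p = 2.4e-21). The immunoproteasome subunits Psmb8 and Psmb10 rose with log2 changes of 3.36 ± 0.18 and 2.60 ± 0.10. Cd274, which encodes the inhibitory ligand PD-L1, rose, at 27.5 ± 5.55 CPM in TNF_SCO and 18.4 ± 2.63 CPM in basal_SCO (SD, n = 4 each), while with DMSO it had 60.8 ± 5.45 CPM in TNF_DMSO and 19.9 ± 2.91 CPM in basal_DMSO. Its rise was smaller with SCO by -1.03, SE 0.17, adjusted p = 5.0e-05.

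Adhesion and scavenger receptor genes were higher for 14 of 16 members. Vcam1, the vascular cell adhesion molecule, had 606, 457, 495 and 457 CPM in the TNF_SCO libraries, against 48.4, 48.5, 45.8 and 47.2 CPM in the basal_SCO libraries (log2 change 3.41, SE 0.11, adjusted p = 9.3e-26), and Icam1 was measured at low counts, with 2.23, 1.12, 0.625 and 2.60 CPM in the TNF_SCO libraries, against 0, 0, 0.305 and 0 CPM in the basal_SCO libraries (log2 change 4.47, SE 0.73, adjusted p = 6.7e-06). Its counts in basal_SCO all came from the third library, so no fold can be measured without that library. Olr1, Tlr2 and the hyaluronan receptor Cd44 rose with log2 changes of 5.04 ± 0.15, 5.39 ± 0.20 and 3.22 ± 0.10. Mcam was the member that fell, at 78.8 ± 12.2 CPM in TNF_SCO and 162 ± 7.26 CPM in basal_SCO (SD, n = 4 each), less than with DMSO by 1.03 (adjusted p = 4.0e-07). Slc15a3, an endosomal peptide transporter, had 38.8, 28.9, 37.2 and 29.7 CPM in the TNF_SCO libraries, against 0, 0, 0 and 0 CPM in the basal_SCO libraries, which is at least 677-fold higher in TNF_SCO with the floor of 3 counts over the basal_SCO group. Cybb, the catalytic subunit of the phagocyte NADPH oxidase, had 65.9, 61.3, 70.5 and 73.3 CPM in the TNF_SCO libraries, against 0.180, 0, 0 and 0.116 CPM in the basal_SCO libraries (log2 change 9.58, SE 0.28, adjusted p = 6.2e-27). Near the floor of detection in basal_SCO, the size of its fold is uncertain.

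The matrix genes split by function. Of 22 tested proteases and inhibitors, 14 were higher and 4 were lower, whereas of 24 collagens, laminins and related genes 4 were higher and 14 were lower. Mmp3, the protease stromelysin 1, had 820.0, 710.0, 891 and 770.3 CPM in the TNF_SCO libraries, against 3.91, 5, 3.96 and 2.67 CPM in the basal_SCO libraries, without overlap (log2 change 7.70, SE 0.20, adjusted p = 2.4e-28). The inhibitor gene Timp1 had 660.3, 466, 544 and 481 CPM in the TNF_SCO libraries, against 28.8, 30.7, 28.4 and 32.4 CPM in the basal_SCO libraries (log2 change 4.16, SE 0.16, adjusted p = 6.6e-23). Mmp13 and Mmp9 rose with log2 changes of 4.66 ± 0.20 and 4.97 ± 0.29, and Mmp2 fell with -1.31 ± 0.11. Col6a2 and Col3a1 had log2 changes of -1.27 ± 0.066 and -1.09 ± 0.084, Lox, which cross-links collagen, of -1.03 ± 0.10, and Col18a1 rose with 1.08 ± 0.10. Col5a3 stood apart from vehicle: it had 81.9 against 92.4 CPM in TNF_SCO against basal_SCO and 102 against 62.0 CPM in TNF_DMSO against basal_DMSO, a difference of responses of -0.90, SE 0.11, adjusted p = 1.4e-07.

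Genes of immediate early and AP-1 factors rose, but 6 of 23 rose less with SCO or were otherwise lower in the difference, and 2 were higher in it. In the TNF response with SCO, 17 were higher and 1 was lower. Junb had 245, 208, 267 and 204 CPM in the TNF_SCO libraries, against 23.3, 23.3, 26.5 and 17.6 CPM in the basal_SCO libraries (log2 change 3.36, SE 0.11, adjusted p = 4.4e-25), and its 95% interval of the difference from DMSO was -0.42 to 0.17. Fosl1, which encodes the AP-1 subunit FRA1, had 93.0, 86.4, 74.8 and 88.4 CPM in the TNF_SCO libraries, against 35.1, 37.4, 34.2 and 38.3 CPM in the basal_SCO libraries, without overlap (log2 change 1.24, SE 0.10, adjusted p = 4.0e-13). With DMSO it had 87.7 ± 3.75 CPM in TNF_DMSO and 17.2 ± 2.11 CPM in basal_DMSO (SD, n = 4 each), so the TNF_SCO and TNF_DMSO means lay close together while basal_SCO stood above basal_DMSO. Its rise was smaller with SCO by -1.11, SE 0.15, adjusted p = 1.4e-06. The same order of the 4 groups was seen for Maff, with 80.7 against 36 CPM in TNF_SCO against basal_SCO and 82.0 against 20.2 CPM in TNF_DMSO against basal_DMSO (difference -0.86 (adjusted p = 5.2e-04)). Ier3 had 184 against 83.0 CPM with SCO and 208 against 55.4 CPM with DMSO, TNF first in each pair (difference -0.76 (adjusted p = 2.9e-04)). Dusp6, a phosphatase of ERK, had 65.1 against 16.4 CPM with SCO and 74.0 against 10.9 CPM with DMSO (difference -0.78 (adjusted p = 5.8e-04)). Egr1 rose with a log2 change of 1.78 ± 0.084, close to the 1.92 with DMSO. Pim1, a survival kinase induced by cytokines, had 37.1 against 10.4 CPM with SCO and 53.0 against 6.52 CPM with DMSO (difference -1.23 (adjusted p = 5.4e-05)).

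Enzymes of prostaglandin and nitric oxide synthesis gave a mixed picture, with 7 of 15 higher and 3 lower. Ptges, which makes prostaglandin E2, had 532, 472, 473 and 516 CPM in the TNF_SCO libraries, against 94.7, 83.4, 89.8 and 88.7 CPM in the basal_SCO libraries (log2 change 2.48, SE 0.074, adjusted p = 1.8e-26). Ptgs2, the inducible cyclooxygenase, was measured at low counts, with 3.03, 2.02, 2.40 and 3.02 CPM in the TNF_SCO libraries, against 1.02, 1.05, 1.52 and 2.44 CPM in the basal_SCO libraries (log2 change 0.78, SE 0.31, adjusted p = 0.037). The call was lost without TNF_SCO replicate 1 or 4 and without basal_SCO replicate 1, 2 or 3, at 0.62 to 0.78, without a filter on low counts, and in the compared libraries alone. The groups overlapped, and the rise was smaller than with DMSO by -1.76, SE 0.46, adjusted p = 0.016, which was lost without basal_SCO replicate 4 or basal_DMSO replicate 3, at -1.50 to -1.41. The phospholipase gene Pla2g4a was not called with SCO, at 17.6 ± 2.39 CPM in TNF_SCO and 17.5 ± 2.89 CPM in basal_SCO, and was raised with DMSO, at 21.3 ± 2.09 CPM in TNF_DMSO and 11.6 ± 1.83 CPM in basal_DMSO (SD, n = 4 each). The difference of the 2 responses was -0.88, SE 0.22, adjusted p = 0.013. Nos2, the inducible nitric oxide synthase, had 1.36, 0.719, 1.28 and 0.946 CPM in the TNF_SCO libraries, against 0, 0, 0 and 0 CPM in the basal_SCO libraries, at least 21.7-fold higher in TNF_SCO with the same floor. Of the survival and death genes 17 of 24 were higher. The death receptor gene Fas had a log2 change of 4.38 ± 0.17, Casp4 of 4.4 ± 0.20 and Bid of 1.97 ± 0.066.

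Cell cycle genes were higher for 24 of 30 members. The replication helicase genes Mcm3, Mcm6 and Mcm5 rose with log2 changes of 1.67 ± 0.11, 1.53 ± 0.11 and 1.59 ± 0.14. Ccnd1, cyclin D1, had 282, 246, 287 and 260.1 CPM in the TNF_SCO libraries, against 129, 118, 111 and 123 CPM in the basal_SCO libraries (log2 change 1.16, SE 0.086, adjusted p = 2.4e-14), and its rise was larger with SCO than with DMSO by 0.77, SE 0.12, adjusted p = 2.5e-05. Ccnd3 fell, with a log2 change of -0.76 ± 0.064.

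Against this, the genes of the fat cell itself fell. All 13 adipocyte markers were lower in TNF_SCO, with a median log2 change of -1.34, and 10 of them fell less than with DMSO, where the median was -2.01. Pparg had 227, 225, 173 and 202 CPM in the TNF_SCO libraries, against 409.8, 402, 369 and 438 CPM in the basal_SCO libraries (log2 change -0.97, SE 0.079, adjusted p = 3.0e-13), a fall that was smaller than with DMSO by 0.45, SE 0.11, adjusted p = 0.0094. Cebpa, which encodes C/EBPα, had 134, 151, 139 and 143 CPM in the TNF_SCO libraries, against 399, 402, 384 and 361 CPM in the basal_SCO libraries, with every TNF_SCO library below every basal_SCO library (log2 change -1.45, SE 0.084, adjusted p = 2.0e-17). With DMSO its log2 change was -2.80, and the fall was smaller with SCO by 1.35, SE 0.12, adjusted p = 1.6e-10. Klf15 and Ppargc1b fell with log2 changes of -1.31 ± 0.10 and -1.74 ± 0.11, and Klf5, an early adipogenic factor, rose with 3.16 ± 0.15. Of 26 tested adipogenic transcription factors, 5 were higher and 15 were lower, against 25% and 23.3% of all genes. The response was higher with SCO than with DMSO for 6 of them, against 3.51% of all genes. Srebf1, the regulator of lipogenic enzymes, was not called with SCO, at 55.6 ± 6.27 CPM in TNF_SCO and 57.3 ± 4.88 CPM in basal_SCO, and was lowered with DMSO, at 38.4 ± 5.44 CPM in TNF_DMSO and 69.1 ± 3.78 CPM in basal_DMSO (SD, n = 4 each; difference 0.80, SE 0.12, adjusted p = 1.9e-05).

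Many targets of PPARγ fell less than with vehicle. Of 34 tested targets, 27 were lower and 2 were higher with SCO, and in the difference SCO minus DMSO 21 were higher and 2 were lower, against 3.51% and 1.13% of all genes. The list holds 7 of the 13 adipocyte markers, so the 2 counts share genes. Fabp4, the fatty acid-binding protein of adipocytes, had 25888, 28986, 22555 and 29105 CPM in the TNF_SCO libraries, against 35734, 36579, 34617 and 42270.0 CPM in the basal_SCO libraries, a small fall (log2 change -0.49, SE 0.10, adjusted p = 1.0e-04). With DMSO it had 5692 ± 517 CPM in TNF_DMSO and 15841 ± 559 CPM in basal_DMSO (SD, n = 4 each), so the log2 change there was -1.48 and the difference was 0.99, SE 0.14, adjusted p = 6.7e-06. Pck1, which makes glycerol 3-phosphate in fat cells, had 64.4, 57.2, 57.0 and 70.8 CPM in the TNF_SCO libraries, against 154, 161, 141 and 148 CPM in the basal_SCO libraries (log2 change -1.28, SE 0.13, adjusted p = 6.3e-11). With DMSO it had 3.59 ± 0.877 CPM in TNF_DMSO and 48.3 ± 7.09 CPM in basal_DMSO (SD, n = 4 each), so that the TNF_SCO level lay above even the basal_DMSO level, and the fall was smaller with SCO by 2.50, SE 0.21, adjusted p = 4.9e-11. Arxes2 and Gpd1 fell with log2 changes of -1.80 ± 0.088 and -2.00 ± 0.094, against -3.08 and -3.47 with DMSO, and the differences were 1.28 (adjusted p = 3.0e-09) and 1.47 (adjusted p = 1.6e-10). Angptl4, an inhibitor of lipoprotein lipase, was the member that rose most, with 852, 845, 731 and 803 CPM in the TNF_SCO libraries, against 339, 367, 339.5 and 332 CPM in the basal_SCO libraries (log2 change 1.23, SE 0.062, adjusted p = 2.4e-19), less than with DMSO by -0.73, SE 0.086, adjusted p = 1.8e-07.

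**Figure D3:**
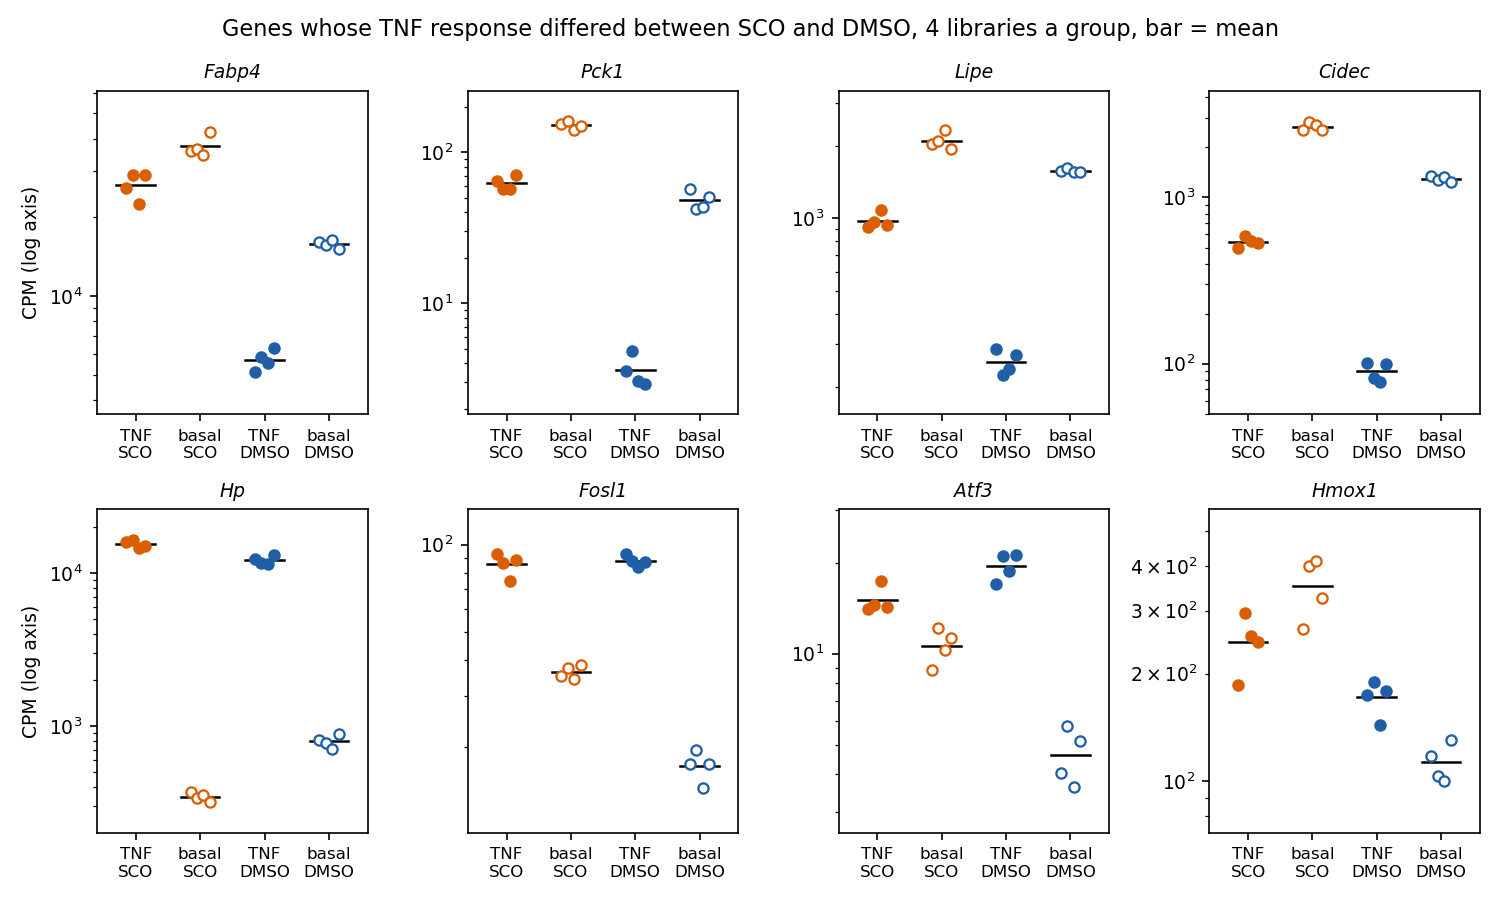
CPM in every library of TNF_SCO, basal_SCO, TNF_DMSO and basal_DMSO for 8 genes whose TNF response differed between SCO and DMSO, on a log axis with group means as bars. Fabp4, Pck1, Lipe and Cidec stay higher in TNF_SCO than in TNF_DMSO, Hp rises further with SCO, and Fosl1, Atf3 and Hmox1 start higher in basal_SCO than in basal_DMSO.

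Proteins of the lipid droplet were lower for 14 of 19 members and higher for 3. In the difference, 10 fell less than with DMSO or were otherwise higher, and 1 was lower. Plin1, the perilipin that guards the droplet, had 698, 714, 715 and 699 CPM in the TNF_SCO libraries, against 1378, 1397, 1452 and 1412 CPM in the basal_SCO libraries, tight on both sides (log2 change -1.0, SE 0.06, adjusted p = 7.0e-17). With DMSO its log2 change was -2.01, and the difference was 1.01, SE 0.085, adjusted p = 5.1e-11. Cidec, which fuses droplets, had 497, 589.7, 548 and 533 CPM in the TNF_SCO libraries, against 2535, 2827, 2714 and 2549 CPM in the basal_SCO libraries (log2 change -2.29, SE 0.079, adjusted p = 1.7e-24). Its fall was smaller than the -3.85 with DMSO by 1.56, SE 0.11, adjusted p = 6.8e-13. G0s2, the inhibitor of adipose triglyceride lipase, Bscl2, which encodes seipin, and Cavin2 fell with log2 changes of -1.63 ± 0.10, -1.60 ± 0.072 and -1.49 ± 0.087. The caveolin genes Cav1 and Cav2 fell with -1.33 ± 0.067 and -1.42 ± 0.073, and the 95% intervals of their differences from DMSO were -0.12 to 0.26 and -0.25 to 0.16.

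Lipolysis genes were lower for 16 of 22 members, with 8 higher in the difference. Adrb3, the beta-3 adrenergic receptor of fat cells, had 23.3, 21.2, 19.2 and 19.2 CPM in the TNF_SCO libraries, against 276, 244, 238 and 222 CPM in the basal_SCO libraries, the largest fall among the lipolysis genes named here (log2 change -3.56, SE 0.13, adjusted p = 1.2e-23). With DMSO its log2 change was -5.24, so the fall with SCO was smaller by 1.67, SE 0.18, adjusted p = 2.0e-08. Lipe, hormone-sensitive lipase, had 917, 961, 1083 and 935 CPM in the TNF_SCO libraries, against 2027, 2082, 2316 and 1939 CPM in the basal_SCO libraries (log2 change -1.10, SE 0.077, adjusted p = 4.7e-15), and its fall was smaller than with DMSO by 1.52, SE 0.11, adjusted p = 1.1e-12. Pnpla2, adipose triglyceride lipase, and Pde3b, the phosphodiesterase through which insulin restrains lipolysis, fell with log2 changes of -1.04 ± 0.071 and -1.73 ± 0.081, both less than with DMSO by 0.55 (adjusted p = 2.5e-04) and 0.83 (adjusted p = 2.2e-06).

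Genes of fatty acid uptake and triglyceride synthesis were lower for 21 of 25 members, and 11 were higher and 1 was lower in the difference. Gpat3, which starts glycerolipid synthesis, had 24.4, 32.7, 30.4 and 27.5 CPM in the TNF_SCO libraries, against 217, 233, 258 and 213 CPM in the basal_SCO libraries (log2 change -3.00, SE 0.095, adjusted p = 1.0e-25). Dgat2, which forms triglyceride, had 215, 248, 222 and 219 CPM in the TNF_SCO libraries, against 292, 317, 286 and 313 CPM in the basal_SCO libraries (log2 change -0.42, SE 0.075, adjusted p = 1.1e-05), a fall smaller than the -1.82 with DMSO by 1.40, SE 0.11, adjusted p = 4.5e-12. Dgat1 and Lpin1 fell with log2 changes of -1.44 ± 0.077 and -1.66 ± 0.079, and Lpl, lipoprotein lipase, with -1.45 ± 0.083. The acyl-CoA synthetase gene Acsl5 was the member that rose, with 2.13 ± 0.081.

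De novo lipogenesis genes were lower for 18 of 22 members, and 8 were higher in the difference. Thrsp, a lipogenic factor of fat and liver, had 19.0, 20.7, 18.2 and 22.6 CPM in the TNF_SCO libraries, against 218, 202, 194 and 194 CPM in the basal_SCO libraries (log2 change -3.34, SE 0.15, adjusted p = 1.5e-20), and fell less than with DMSO by 2.04, SE 0.21, adjusted p = 1.1e-08. Fasn, fatty acid synthase, had 107, 126, 143 and 126 CPM in the TNF_SCO libraries, against 501, 474, 496 and 443 CPM in the basal_SCO libraries (log2 change -1.93, SE 0.12, adjusted p = 1.0e-16), and fell less by 0.75, SE 0.16, adjusted p = 0.0025. Scd1, the stearoyl-CoA desaturase, had 3787, 4079.7, 4082 and 4108 CPM in the TNF_SCO libraries, against 7953, 7810.4, 8239 and 8392 CPM in the basal_SCO libraries (log2 change -1.01, SE 0.086, adjusted p = 9.8e-13), and fell less by 1.37, SE 0.12, adjusted p = 1.8e-10. Genes of cholesterol synthesis and uptake were lower for 22 of 25 members with a median log2 change of -0.685, and the median with DMSO was -0.734. Nsdhl, Fdps and Pmvk fell with log2 changes of -0.91 ± 0.063, -0.90 ± 0.062 and -1.25 ± 0.092. Acat2 was the member called in the difference from DMSO, at 0.42 (adjusted p = 0.0025).

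Mitochondrial genes fell together. All 38 tested nuclear genes of the respiratory chain and the tricarboxylic acid cycle were lower, against 23.3% of all genes, with a median log2 change of -0.825 against -0.977 with DMSO. Idh3a, a subunit of mitochondrial isocitrate dehydrogenase, had 160.1, 187, 170.2 and 202 CPM in the TNF_SCO libraries, against 439, 451, 453 and 435 CPM in the basal_SCO libraries, without overlap (log2 change -1.3, SE 0.073, adjusted p = 6.8e-18). Ndufs1, Cyc1 and Sdhb fell with log2 changes of -1.06 ± 0.065, -1.15 ± 0.071 and -0.86 ± 0.058. The difference from DMSO was called for 3 members, Idh3a at 0.40 (adjusted p = 0.013), Cox8b at 0.69 (adjusted p = 3.0e-05) and Cox7a1 at 0.67 (adjusted p = 0.015). Fatty acid oxidation genes were lower for 21 of 26 members, among them Etfb and Cpt2 with -1.15 ± 0.071 and -0.88 ± 0.062, and 7 were higher in the difference. Genes of branched-chain amino acid catabolism were lower for 22 of 24 members, with 9 higher in the difference. Bcat2, the mitochondrial transaminase, had 81.7, 96.7, 75.2 and 81.4 CPM in the TNF_SCO libraries, against 205, 214, 199 and 219 CPM in the basal_SCO libraries (log2 change -1.32, SE 0.087, adjusted p = 6.9e-16), and Hibch fell less than with DMSO by 0.62 (adjusted p = 1.7e-04).

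Insulin signalling and glucose uptake genes were lower for 21 of 30 members and higher for 5. Their median log2 change was -0.673 with SCO and -0.643 with DMSO, so the list as a whole did not fall less, although 8 members were higher in the difference. Slc2a4, which encodes the insulin-responsive glucose transporter GLUT4, had 59.6, 66.6, 59.9 and 65.2 CPM in the TNF_SCO libraries, against 181, 161, 164 and 173 CPM in the basal_SCO libraries (log2 change -1.43, SE 0.10, adjusted p = 3.0e-15). Its log2 change with DMSO was -2.44, and the difference was 1.01, SE 0.14, adjusted p = 3.6e-06. Irs1, the insulin receptor substrate, Akt2 and Tbc1d4 fell with log2 changes of -1.16 ± 0.076, -0.86 ± 0.06 and -1.12 ± 0.10, each less than with DMSO, by 0.57 (adjusted p = 4.3e-04), 0.37 (adjusted p = 0.0055) and 0.84 (adjusted p = 1.7e-04). Ppp1r3c, which targets a phosphatase to glycogen, had 39.6, 41.1, 25.3 and 35.0 CPM in the TNF_SCO libraries, against 214, 204, 195 and 214 CPM in the basal_SCO libraries (log2 change -2.56, SE 0.12, adjusted p = 1.3e-20). Its 95% interval of the difference from DMSO was -0.084 to 0.56.

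Among 21 tested adipokine genes, 8 were higher and 12 were lower. Adipoq, which encodes adiponectin, had 3639, 3556, 3439 and 3376 CPM in the TNF_SCO libraries, against 9181, 9186, 8854 and 8274 CPM in the basal_SCO libraries (log2 change -1.34, SE 0.072, adjusted p = 2.0e-18), and fell less than with DMSO by 0.44, SE 0.10, adjusted p = 0.0048. Agt, angiotensinogen, and Nrg4 fell with log2 changes of -1.54 ± 0.069 and -1.58 ± 0.13. Rarres2, which encodes the chemoattractant chemerin, had 2209, 1879.5, 1886 and 2024 CPM in the TNF_SCO libraries, against 826, 820.2, 771 and 804 CPM in the basal_SCO libraries (log2 change 1.31, SE 0.066, adjusted p = 2.7e-19), a rise larger than with DMSO by 0.44, SE 0.092, adjusted p = 0.0016. Fst, the activin inhibitor follistatin, rose with a log2 change of 3.66 ± 0.15.

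Some large falls lay outside these lists. Car3, a carbonic anhydrase that is abundant in fat cells, had 2.46, 3.41, 2.20 and 1.06 CPM in the TNF_SCO libraries, against 31.9, 34.3, 43.1 and 37.2 CPM in the basal_SCO libraries (log2 change -3.97, SE 0.25, adjusted p = 2.5e-16). The lowest basal_SCO library of Car3 lay far above the highest TNF_SCO library. Aspn, a small leucine-rich proteoglycan of the matrix, had 4.92, 5.66, 3.62 and 3.37 CPM in the TNF_SCO libraries, against 31.0, 35.8, 40.1 and 34.2 CPM in the basal_SCO libraries (log2 change -3.00, SE 0.14, adjusted p = 1.8e-20). Slc13a4, a sulfate transporter, Adh1, an alcohol dehydrogenase, and Cygb, the haem protein cytoglobin, fell with log2 changes of -2.65 ± 0.14, -2.52 ± 0.14 and -2.52 ± 0.13. Poln and 4930458D05Rik complete the 12 largest falls among genes at 16 CPM or more in either group without overlap, and among the 12 largest such rises U90926 had a log2 change of 7.87 ± 0.34.

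Of 34 tested NRF2 and glutathione genes, 10 were higher and 12 were lower, against 25% and 23.3% of all genes. Their median log2 change was 0.045. Hmox1, haem oxygenase 1, had 186, 295, 254 and 244 CPM in the TNF_SCO libraries, against 266, 400.4, 413 and 326 CPM in the basal_SCO libraries, an overlap of the groups with the first library of each low (log2 change -0.52, SE 0.20, adjusted p = 0.03). That call was lost without TNF_SCO replicate 1 or 4 and without basal_SCO replicate 2 or 3, at -0.52 to -0.41, and in DESeq2 at -0.53. With DMSO it had 172 ± 19.8 CPM in TNF_DMSO and 113 ± 13.8 CPM in basal_DMSO (SD, n = 4 each) and rose, and the difference of the responses was -1.12, SE 0.29, adjusted p = 0.013. Nqo1 had 54.7, 69.7, 66.7 and 69.7 CPM in the TNF_SCO libraries, against 17.3, 21.3, 16.8 and 15.6 CPM in the basal_SCO libraries (log2 change 1.88, SE 0.11, adjusted p = 3.7e-17), and Gpx1, glutathione peroxidase 1, had 489, 498, 479 and 514 CPM in the TNF_SCO libraries, against 196, 208, 201 and 189 CPM in the basal_SCO libraries (log2 change 1.32, SE 0.071, adjusted p = 2.0e-18). Both rose more than with DMSO, by 0.63 (adjusted p = 0.01) and 0.75 (adjusted p = 1.3e-06). Sod2, the mitochondrial superoxide dismutase and an NF-κB target, rose with a log2 change of 2.12 ± 0.064, and Cat, catalase, fell with -1.32 ± 0.068. Of 28 genes of the unfolded protein and ATF4 responses, 9 were higher and 14 were lower. In the difference from DMSO 5 were lower and 2 were higher. Atf3 had 14, 14.5, 17.4 and 14.3 CPM in the TNF_SCO libraries, against 8.84, 12.2, 10.3 and 11.3 CPM in the basal_SCO libraries (log2 change 0.51, SE 0.18, adjusted p = 0.018), a call that was lost without TNF_SCO replicate 3 or basal_SCO replicate 1, at 0.43 without each. With DMSO it had 19.5 ± 2.00 CPM in TNF_DMSO and 4.64 ± 0.981 CPM in basal_DMSO (SD, n = 4 each), so its rise was smaller with SCO by -1.58, SE 0.27, adjusted p = 8.9e-05. Asns, asparagine synthetase, fell, at 148 ± 11.8 CPM in TNF_SCO and 257 ± 4.13 CPM in basal_SCO (SD, n = 4 each), while with DMSO it had 136 ± 7.50 CPM in TNF_DMSO and 151 ± 7.10 CPM in basal_DMSO, a difference of responses of -0.64 (adjusted p = 6.1e-06). Metallothionein Mt2 had 9873, 10749, 7522 and 10335 CPM in the TNF_SCO libraries, against 1048, 1205, 931 and 1412 CPM in the basal_SCO libraries (log2 change 3.07, SE 0.15, adjusted p = 2.0e-19), a rise smaller than with DMSO by -0.69 (adjusted p = 0.036). The difference was lost in DESeq2 and when any 1 of 10 libraries was left out, at -0.70 to -0.57: TNF_SCO replicates 1 and 3, basal_SCO replicates 2 and 4, TNF_DMSO replicates 2, 3 and 4, and basal_DMSO replicates 1, 3 and 4. The zinc importer gene Slc39a14 rose with a log2 change of 2.64 ± 0.11, and Tfrc, the transferrin receptor, fell with -0.97 ± 0.10. Of 19 circadian clock genes 11 were lower, among them Tef, Dbp and Per3 with log2 changes of -0.79 ± 0.073, -0.88 ± 0.084 and -1.09 ± 0.14.

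**Figure D4:**
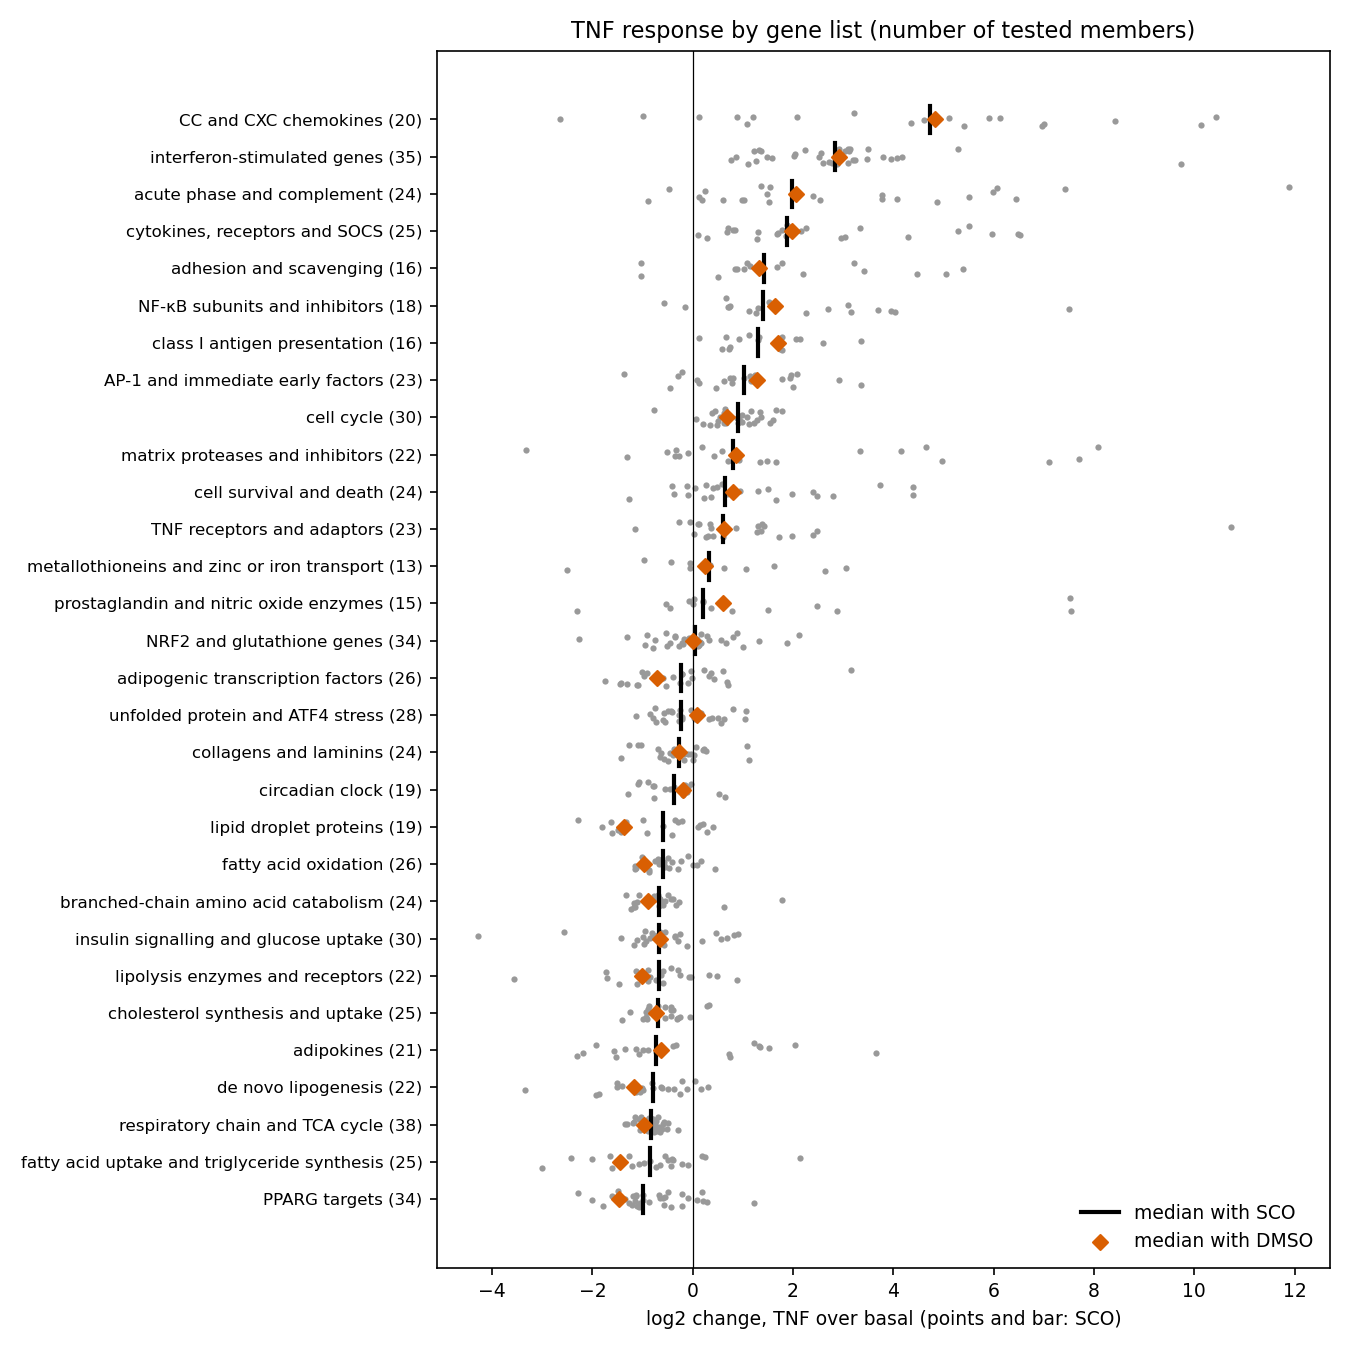
Log2 change TNF_SCO over basal_SCO of every tested member of each gene list (points), with the list's median with SCO (black bar) and with DMSO vehicle (orange diamond). Chemokine, acute phase and interferon lists lie to the right with both medians close together. The DMSO median is further right for class I antigen presentation (1.31 with SCO, 1.69 with DMSO) and NF-κB genes (1.40 and 1.65). Most lipid lists lie to the left with the DMSO median further left, but the 2 medians are close for cholesterol genes (-0.685 and -0.734).

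The size of the whole response with SCO was set against that with DMSO over genes chosen in the other libraries, those called and changed at least 2-fold by TNF with both CAP7 and ROSI. Over the 974 genes raised there, the median log2 change was 1.90 with SCO and 1.85 with DMSO, and the slope through 0 of SCO on DMSO was 0.984. Computed for each TNF_SCO library on log2(CPM + 0.5), which is another scale than the fit, it was 0.907 to 1.02. Over the 427 genes lowered there, the median was -1.60 with SCO and -2.13 with DMSO, and the slope was 0.736, and 0.768 to 0.783 for single TNF_SCO libraries on that scale. The fall was smaller with SCO for 333 of these 427 genes (78%), and the rise was smaller with SCO for 434 of the 974 (44.6%). Of the 670 genes whose response differed from DMSO, 443 were lowered by TNF with DMSO and had a higher response with SCO, and 131 were raised with DMSO and had a lower response with SCO. Another 38 were raised with DMSO and higher with SCO, 8 were lowered with DMSO and lower with SCO, and 50 were not called in vehicle-treated cells. The DMSO response both sets these classes and enters the difference, so spread between DMSO libraries can favour the classes of 443 and 131 genes. These classes include 22 genes for which both responses were called, in opposite directions. Tsc22d1, Tle3 and Krt79 are among those, picked here after their values were seen: they rose with SCO and fell with DMSO. Tsc22d1 had 475 against 382 CPM with SCO and 246 against 348 CPM with DMSO, TNF first in each pair. Others, such as Tarbp1, Nedd4l and Hsd17b12, fell with SCO and rose with DMSO. The rise was not particular to SCO: log2 changes with CAP7 and ROSI were 0.48 and 0.61 for Tsc22d1 and 1.09 and 1.37 for Krt79. For Tle3 they were 0.09, not called, and 0.64.

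Among genes with a mean of at least 16 CPM in 1 of the 4 groups, the 8 largest called differences from DMSO upward were B3galt2, Pck1, Rasd1, Clstn3, Thrsp, Adcyap1r1, Mc5r and Aldh3b2. B3galt2, a galactosyltransferase, had 17.1, 19.3, 16.7 and 15.7 CPM in the TNF_SCO libraries, against 67.5, 67.3, 72.2 and 60.0 CPM in the basal_SCO libraries (log2 change -1.95, SE 0.12, adjusted p = 1.9e-16). With DMSO it had 1.67 ± 0.652 CPM in TNF_DMSO and 58.0 ± 5.62 CPM in basal_DMSO (SD, n = 4 each), and the difference was 3.14, SE 0.20, adjusted p = 1.7e-13. Clstn3, a calsyntenin that in mouse fat acts at the lipid droplet, had 20.9 against 40.1 CPM with SCO and 2.40 against 21.6 CPM with DMSO (difference 2.21 (adjusted p = 1.1e-12)). Downward, the 8 largest were Il13ra2, Gm19705, Atf3, Rnd1, Pim1, Tsku, Hmox1 and Fosl1. Rnd1, a small GTPase, had 20.1 against 5.15 CPM with SCO and 28.8 against 3.11 CPM with DMSO (difference -1.25 (adjusted p = 0.0049)). Tsku, the secreted protein tsukushi, was not called with SCO, at 22.5 ± 2.94 CPM in TNF_SCO and 20.0 ± 3.23 CPM in basal_SCO, and was raised with DMSO, at 21.6 ± 2.55 CPM in TNF_DMSO and 8.57 ± 1.13 CPM in basal_DMSO (SD, n = 4 each; difference -1.18, SE 0.19, adjusted p = 3.0e-05).

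Fewer genes were called in the differences from CAP7 and from ROSI than in the difference from DMSO, and those counts depended on single libraries. SCO minus CAP7 was called higher for 31 genes (0.215%) and lower for 85 (0.589%), and SCO minus ROSI higher for 64 (0.444%) and lower for 184 (1.28%). Among genes raised by TNF in the groups not compared, the slope was 0.962 on CAP7 (881 genes) and 0.926 on ROSI (922 genes). Among genes lowered there, it was 1.07 on CAP7 (550 genes) and 0.997 on ROSI (491 genes), and single TNF_SCO libraries on log2(CPM + 0.5) gave 1.11 to 1.12 on CAP7 and 1.06 on ROSI. A smaller fall with SCO, as against DMSO, was not seen in these slopes. In the gene lists, SCO minus ROSI was called for 5 of 13 adipocyte markers (median difference -0.42) and 7 of 34 PPARγ targets (median -0.25). SCO minus CAP7 was called for 1 of the 13 markers (median -0.21) and 2 of the 34 targets (median -0.16). Acute phase and complement genes had medians of -0.41 from CAP7 (3 of 24 called) and -0.36 from ROSI (1 called). Interferon-stimulated genes had medians of -0.39 and -0.25, with 0 of 35 called in either. Medians of other lists lay on both sides of 0, and cell cycle genes had 0.38 from ROSI (4 of 30 called). For Pck1 the log2 change was -1.28 with SCO, -1.07 with CAP7, -0.76 with ROSI and -3.77 with DMSO, and for Lipe it was -1.10, -0.96, -0.90 and -2.63 in the same order. Some genes did differ. Ccl9 rose with a log2 change of 3.23 with SCO, less than with CAP7 by -1.17 (adjusted p = 5.1e-06) and less than with ROSI by -1.06 (adjusted p = 1.3e-05). Cxcl5 rose less than with ROSI by -1.53 (adjusted p = 1.2e-05) and Acp5, a phosphatase of macrophages and osteoclasts, by -1.27 (adjusted p = 2.0e-05). Spp1, osteopontin, rose less than with CAP7 by -1.18 (adjusted p = 9.2e-04), Ly75, which encodes the endocytic receptor DEC-205, rose more than with CAP7 by 0.65 (adjusted p = 0.045), and Il1rl1 rose more than with ROSI by 1.12 (adjusted p = 0.02). The call of Ly75 was lost when any 1 of 11 of the 16 libraries compared was left out, at 0.53 to 0.69, and that of Il1rl1 without basal_SCO replicate 4 or basal_ROSI replicate 1, at 1.08 and 1.04. Ly75 was also lost in limma-voom and in the compared libraries alone, and Il1rl1 in limma-voom and in thinned counts. Thrsp fell more than with CAP7 by -1.06 (adjusted p = 0.0035) and more than with ROSI by -1.05 (adjusted p = 0.0029).
Leaving out single libraries moved these counts. The 31 genes higher than with CAP7 became 13 and 11 without TNF_SCO replicates 3 and 4, and 5, 9 and 14 without basal_SCO replicates 1, 2 and 4. They became 10, 20, 2 and 112 without TNF_CAP7 replicates 1, 2, 3 and 4, and 18, 9 and 12 without basal_CAP7 replicates 1, 3 and 4. The 85 genes lower than with CAP7 became 55 without basal_SCO replicate 1, 46 and 172 without TNF_CAP7 replicates 3 and 4, and 55 without basal_CAP7 replicate 3. The 64 genes higher than with ROSI became 42 without TNF_SCO replicate 3, 30 without basal_SCO replicate 4, 38 and 27 without TNF_ROSI replicates 1 and 4, and 38 without basal_ROSI replicate 3. The 184 genes lower than with ROSI became 94 and 117 without TNF_SCO replicates 3 and 4, 105 without basal_SCO replicate 1 and 101 without TNF_ROSI replicate 4.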

How the data were processed

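Gene expression of 3T3-L1 adipocytes was measured with a QuantSeq 3′ mRNA library kit, per the labels' protocols. The deposited table holds raw read counts per gene that the authors made with cutadapt 4.9, STAR 2.7.11b and HTSeq 2.0.5 on GRCm39, and R 4.4.1 and limma 3.60.6 are named too, per the submitters' processing notes. How strand and multi-mapping reads were set is not given in the sources used here. A 3′ count does not scale with transcript length. Levels of different genes were not tested against each other, but CPM were added over marker genes and a level of 16 CPM was used to choose named genes.

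Computed here were edgeR 4.0.16 quasi-likelihood F tests in R 4.3.3, with 1 mean for each of 8 groups over all 32 libraries, so that the groups share 1 estimate of the spread. Low genes were removed with filterByExpr, scaling was TMM, and p-values were adjusted by the Benjamini-Hochberg method over the 14428 genes tested. SE is the log2 change divided by the root of F. Named genes followed a rule: the largest called changes at 16 CPM or more without overlap, the lowest p-values per list, and a set of marker genes. The members and lists were chosen with earlier results of these data known. On simulated counts the test recovered 82% of genes changed 2-fold in the TNF response with SCO and 74% in the difference from DMSO. Those counts had 50 genes changed at each fold size, 13775 tested, and the same mean in all groups for every other gene. The data changed far more genes, so recovery in them may differ. Symbols came from GENCODE M21 names, and promoters from RefSeq GRCm38.p6, used for sequence and not joined to GRCm39 positions. Alternatives were other scalings (RLE, library size), filters, DESeq2 1.42.0, limma-voom 3.58.1, thinned counts, a replicate block and each library left out. For slopes, only TNF_SCO and basal_SCO libraries were left out.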

Additional observations from a re-analysis of the deposited data

Results flagged for a closer look

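In 7 of the 136 sets of 4 libraries checked, 1 library lay apart from the other 3 by Dixon's ratio at its 95% critical value, and chance alone marks about 1 set in 20. TNF_SCO replicate 3 was the library in 3 of them, with 17.4 CPM of Atf3, 972 CPM of Cfb and 42.0 CPM of Tnfaip3. TNF_SCO replicate 1 was low in Scd1 at 3787 CPM. In basal_SCO, replicate 2 was high in Cfb at 14 CPM, replicate 4 in Cxcl10 at 0.872 CPM and replicate 3 in Icam1 at 0.305 CPM, the last a gene without a count in the other 3 libraries.

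The TNF response with SCO differed from that with DMSO, by the test of the difference, for the genes named here, with SCO minus DMSO on the log2 scale. Differences in the transcription factors were 1.35 for Cebpa, 0.80 for Srebf1 and 0.45 for Pparg. Those in lipid droplet and lipolysis genes were 1.56 for Cidec, 1.01 for Plin1, 2.21 for Clstn3, 1.67 for Adrb3, 1.52 for Lipe, 0.55 for Pnpla2 and 0.83 for Pde3b. Lipid synthesis and binding gave 2.50 for Pck1, 2.04 for Thrsp, 1.47 for Gpd1, 1.40 for Dgat2, 1.37 for Scd1, 1.28 for Arxes2, 0.99 for Fabp4, 0.75 for Fasn and 0.42 for Acat2. In insulin signalling and glucose uptake the difference was 1.01 for Slc2a4, 0.84 for Tbc1d4, 0.57 for Irs1 and 0.37 for Akt2. Mitochondrial genes gave 0.69 for Cox8b, 0.67 for Cox7a1, 0.62 for Hibch and 0.40 for Idh3a. Secreted and acute phase proteins gave 1.56 for Hp, 1.52 for S100a8, 0.71 for Orm1, 0.44 for Adipoq and 0.44 for Rarres2. Other genes with a higher response were B3galt2 at 3.14, Mcam at 1.03, Il1rl1 at 0.91, Ccnd1 at 0.77, Gpx1 at 0.75 and Nqo1 at 0.63.

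Lower responses with SCO were found for the immediate early and stress genes Atf3 at -1.58, Fosl1 at -1.11, Hmox1 at -1.12, Maff at -0.86, Dusp6 at -0.78, Ier3 at -0.76, Mt2 at -0.69 and Asns at -0.64. They were found too for the inflammatory genes Il13ra2 at -2.00, Ptgs2 at -1.76, Pim1 at -1.23, Cd274 at -1.03, Pla2g4a at -0.88, Birc2 at -0.58 and Tnfaip2 at -0.47. The remaining ones were Rnd1 at -1.25, Tsku at -1.18, Col5a3 at -0.90 and Angptl4 at -0.73.

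Against CAP7 the difference was -1.18 (adjusted p = 9.2e-04) for Spp1, -1.17 (adjusted p = 5.1e-06) for Ccl9, -1.06 (adjusted p = 0.0035) for Thrsp and 0.65 (adjusted p = 0.045) for Ly75. Against ROSI it was -1.53 (adjusted p = 1.2e-05) for Cxcl5, -1.27 (adjusted p = 2.0e-05) for Acp5, -1.06 (adjusted p = 1.3e-05) for Ccl9, -1.05 (adjusted p = 0.0029) for Thrsp and 1.12 (adjusted p = 0.02) for Il1rl1. Adjusted p-values here and in the test of the difference are edgeR's quasi-likelihood test over all tested genes.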

How the results depend on the processing

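Across the alternatives with all libraries, 88 of 100 counts of genes stayed within 1.5 times, 2101 of 2115 gene values kept direction and call, and 37 of 54 slopes stayed within the SD of single libraries. The cause of the other shifts was not tested, except that the stricter filter tests fewer genes. It left 773 genes at least 2-fold higher and 505 at least 2-fold lower with SCO. Genes higher than with CAP7 numbered 130 without a filter, 92 in DESeq2 and 9 in the compared libraries alone, and genes lower numbered 213 without a filter, 132 with the stricter filter and 188 in DESeq2. Genes higher than with ROSI numbered 170 without a filter, 148 in DESeq2 and 41 in the compared libraries alone, and genes lower numbered 307 without a filter.

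The slope over lowered genes was 0.7428 on DMSO without a filter, 0.7493 with the stricter filter and 0.7511 in thinned counts. On CAP7 it was 1.083 and 1.178 with those filters, 1.079 in DESeq2, 1.089 in limma-voom, 1.059 with the replicate block and 1.111 in thinned counts. On ROSI it was 0.9814 with RLE, 0.9914 with library size alone, 0.9884 without a filter, 1.097 with the stricter filter, 0.9839 in DESeq2, 1.003 in limma-voom, 0.9794 with the replicate block and 0.9899 in thinned counts.

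With 1 library left out, SCO minus CAP7 ran between 2 and 112 genes higher and 46 and 172 lower, and SCO minus ROSI between 27 and 86 higher and 94 and 208 lower. Slopes were recomputed only without each of the 8 TNF_SCO and basal_SCO libraries, so their ranges leave out the spread of the DMSO, CAP7 and ROSI libraries. Over lowered genes they ran between 0.7301 and 0.7494 on DMSO, 1.054 and 1.089 on CAP7, and 0.9677 and 1.002 on ROSI. SCO minus DMSO ran between 436 and 570 genes higher and 116 and 152 lower, and the TNF response with SCO between 3411 and 3492 higher and 3115 and 3232 lower. SCO minus DMSO, uncalled for both, changed sign for Cav2 (-0.1103 to 0.02835) and Cxcl1 (-0.2134 to 0.04409).

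The labels give the samples only a shared number, and whether libraries were paired is not known. The deviations of same-numbered TNF_SCO and basal_SCO libraries correlated at 0.071 to 0.242, and those with DMSO at 0.023 to 0.096. Each TNF_SCO library correlated best with the basal_SCO library of its own number, which is a hint from the data and not from the design. With the replicate block 3619 genes were higher and 3390 lower with SCO, and 504 and 170 in SCO minus DMSO. A difference in low genes such as Il6, Icam1 and Ptgs2 was limited by depth, and intervals cover counting and library spread only.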
